A study of Mus musculus with 3 samples.

Results

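Neurotrophins are secreted growth factors of neurons, and the genes examined here encode the ligands brain-derived neurotrophic factor (Bdnf) and neurotrophin 3 (Ntf3) and the receptors TrkB (Ntrk2), TrkC (Ntrk3) and p75 (Ngfr). A gene entered through every probe set that the platform annotation maps to it alone. Of the 5 genes, 3 had such a probe set: Bdnf, Ntrk2 and Ntrk3 had 1 each, which makes 3 of the 12488 probe sets and 3 of the 8251 named genes on the array. Ntf3 and Ngfr had 0, so they are absent from every value below, and 0 probe sets shared between several genes listed any of the 5. The ligands are therefore represented by Bdnf and the receptors by Ntrk2 and Ntrk3.

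The arrays measured total RNA from hippocampal area CA1 of young male mice of the inbred C57BL/6J strain, extracted 6 h after contextual fear conditioning. In this task an animal learns that a place predicts a foot shock: mice had 2 min in a new chamber followed by a shock of 1 s at 0.5 mA, the cycle was given 3 times, and animals went back to the home cage 1 min after the final shock. All 3 arrays belong to this 1 group, and the labels leave unstated how many animals went into each. No untrained animals were among the samples used here, so no value below is a response to training.

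Mature neurotrophins bind as dimers to Trk receptor tyrosine kinases, with Bdnf acting on TrkB and neurotrophin 3 mainly on TrkC, while the precursor forms bind p75 together with sortilin. Trk receptors signal through Ras and MAP kinases, PI3 kinase and phospholipase C gamma. In the hippocampus Bdnf is made mainly by excitatory neurons, its transcription responds to synaptic activity, and TrkB signalling is needed for lasting potentiation at synapses onto CA1 neurons.

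The Bdnf gene is known for several promoters, each with its own first exon spliced to a shared coding exon. The RefSeq promoter table of build GRCm38.p6 holds 7 windows for Bdnf on the plus strand of chromosome 2, against a median of 1 per gene, and 29 of 27025 genes (0.107%) have as many or more. The 60 bases that end just before each annotated start are shown because the 1 probe set of Bdnf gives a single signal for the gene, and the sources used here do not place its probes, so transcripts from these starts cannot be told apart. Capitals mark CACGTCA, a variant of the cAMP response element, a class of site bound by the activity-dependent factor CREB.
Bdnf start 1, chr2:109674640-109674699: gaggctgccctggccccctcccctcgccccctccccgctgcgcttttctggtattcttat
Bdnf start 2, chr2:109676972-109677031: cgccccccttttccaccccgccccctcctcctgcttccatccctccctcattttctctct
Bdnf start 3, chr2:109692376-109692435: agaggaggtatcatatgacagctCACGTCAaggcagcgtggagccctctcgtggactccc
Bdnf start 4, chr2:109692967-109693026: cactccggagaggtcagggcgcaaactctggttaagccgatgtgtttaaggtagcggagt
Bdnf start 5, chr2:109694349-109694408: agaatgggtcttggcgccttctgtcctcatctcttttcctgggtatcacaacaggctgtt
Bdnf start 6, chr2:109709323-109709382: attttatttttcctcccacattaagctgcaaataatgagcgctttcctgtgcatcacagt
Bdnf start 7, chr2:109722861-109722920: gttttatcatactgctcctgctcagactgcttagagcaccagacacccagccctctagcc
CACGTCA was searched on both strands of the whole windows, which run 250 bases before to 50 after a start. It was found in 1 of the 7 Bdnf windows, at bases 37 to 31 before the third start, and in 0 of the 4 windows of the other members, which are 2 of Ntf3, 1 of Ntrk2 and 1 of Ngfr. Of all 32851 windows, 661 (2.01%) hold it. The sequence was set before the search and no other form of the element was searched. The shares of windows that hold it were not tested against each other. Any member windows on 1 chromosome were left out before counting, though not from the 32851, and Ntrk3 had no window among those kept. The GC content of the Bdnf windows ranged from 38.7% before the sixth start to 58.0% before the fifth. The matches describe sequence, and the arrays carry no information on which start was used.

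Bdnf, the ligand, gave a strong signal on every array. The deposited values were 2720, 1982 and 2693 for arrays 1, 2 and 3, with a mean of 2465 ± 419 (SD, n = 3 arrays). Arrays 1 and 3 lay close together and array 2 was lower, by 26.8% of the mean of the other arrays. All 3 values were above 175, the median of all deposited values, which is used here as the threshold for calling a probe set measured. After the arrays were set to a common median, the highest and lowest array differed by 0.49 on the log2 scale, a range larger than that of 51.5% of measured probe sets. Without array 2 the range was 0.03, so nearly all of it rests on that array.

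Ntrk3, the receptor for neurotrophin 3, was measured on every array and varied little. The deposited values were 333, 342 and 303 for arrays 1, 2 and 3, with a mean of 326 ± 20.7 (SD, n = 3 arrays). Array 3 was the lowest, and arrays 1 and 2 lay close together. The log2 range after scaling was 0.13, larger than that of 5.77% of measured probe sets. Without array 3 it was 0.04, so most of this small range rests on that array. Expressed per mean signal, the SD was 6.34% for Ntrk3 and 17.0% for Bdnf.

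The Ntrk2 probe set, for the receptor of Bdnf, gave a signal within the range of control probe sets that have no target in mouse RNA. The values were 15.1, 50.4 and 11.8 for arrays 1, 2 and 3, under the threshold on every array. Of 15 control probe sets for bacterial Dap, Lys, Phe, Thr and Trpn transcripts, 5 were brighter than it on array 1, 5 on array 2 and 9 on array 3. Those controls had medians of 13.5, 33.1 and 17.6 on arrays 1, 2 and 3, also highest on array 2. The deposited values of Ntrk2 were 4.27-fold apart, but the values of arrays 1 and 3 lie under the floor of 47.5 set on weak signals, where values have no order, and with the floor the log2 range was 0.07. TrkB is known to be made as a full-length kinase and as a truncated form that lacks the kinase domain and is abundant in astrocytes, and the sources used here do not say which form the probes match. A signal at this level does not show that the transcript was absent.

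**Figure D1:**
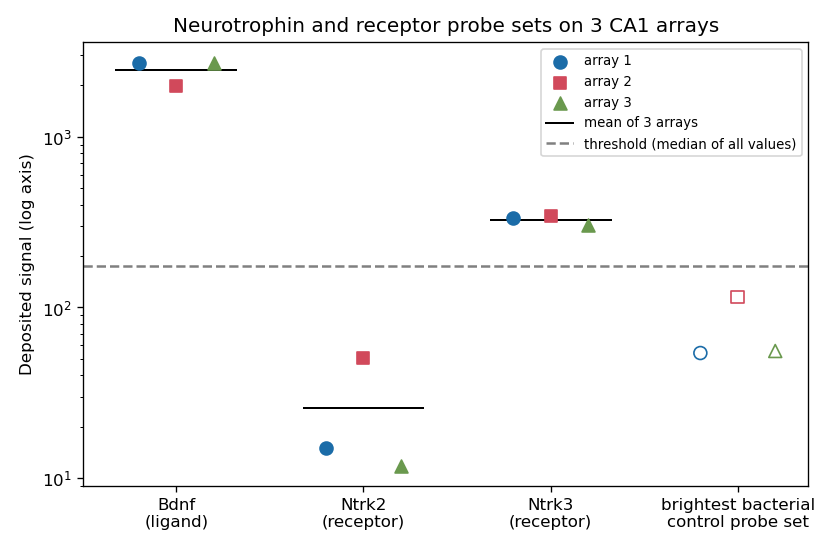
Deposited signal (log axis) of the 3 probe sets on each array, with the mean of 3 arrays as a bar, the threshold of 175 as a dashed line, and as open symbols the brightest of 15 bacterial control probe sets on each array. Bdnf and Ntrk3 lie above the threshold on every array and Ntrk2 lies below the brightest control on each; heights of different probe sets depend on their probes and are not compared.

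Whether a member varied between replicate arrays more than other probe sets of its signal was tested with limma, with its variance set against an intensity-dependent prior over all 6218 measured probe sets. Neither measured member passed. The SD of log2 signal over the 3 arrays was 0.28 for Bdnf, where the prior gave 0.23 for probe sets of that signal (limma, adjusted p = 0.988). For Ntrk3 it was 0.07 against a prior of 0.32 (limma, adjusted p = 0.998). Over all measured probe sets 1 passed (0.0161%), transthyretin (Ttr). Before adjustment 324 probe sets (5.21%) had a p under 0.05, and neither member was among them. The prior was fitted to these same probe sets, so the 5.21% does not measure how much the arrays vary. At the same scaling and floor 0 of the 3 member probe sets had their highest and lowest array more than 2-fold apart, against 12.1% of measured probe sets, and for Ntrk2 the floor sets this. With 3 arrays the test has little reach: in simulated data of this size, 0% of shifts of 1 log2 unit on 1 array were called, 1.2% of 2, 28.8% of 3 and 73.6% of 4.

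**Figure D2:**
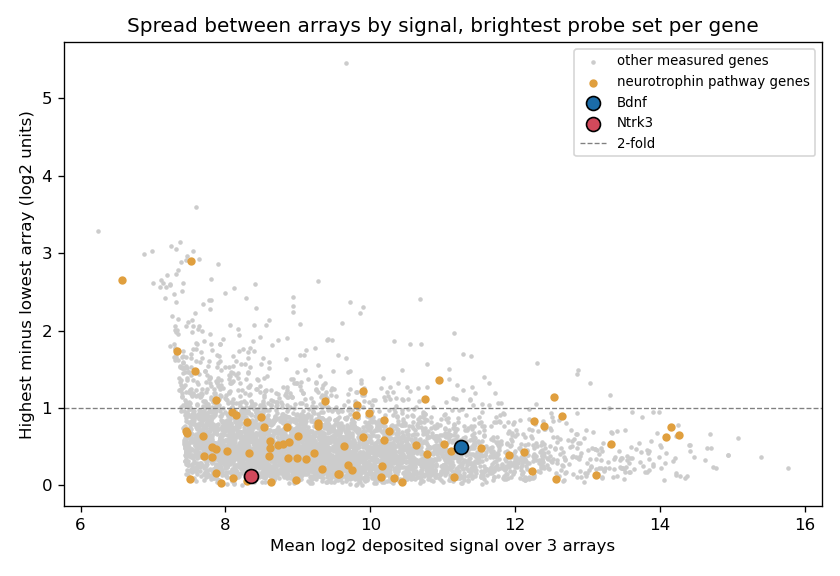
Highest minus lowest array (log2 units) against mean log2 deposited signal, with each gene at its brightest probe set; grey points are measured genes, orange points are genes of the neurotrophin pathway lists, and the dashed line marks 2-fold. Bdnf, at 0.49, lies in the middle of the spread of genes and Ntrk3, at 0.13, near the bottom; the topmost point, at 5.45, is Ttr.

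The ligand and the receptors were set against each other by how they moved between arrays, since the levels of different probe sets are not on a common scale. The deviation of an array is its log2 signal minus the gene's mean over the 3 arrays. For Bdnf the deviations were 0.14, -0.32 and 0.17 on arrays 1, 2 and 3. For Ntrk3 they were 0.02, 0.05 and -0.07. Bdnf was thus lowest on the array where Ntrk3, for the receptor of neurotrophin 3, was highest. Quantile normalization, cyclic loess and no scaling also gave this order. Under quantile normalization Ntrk3 was at 0.031 on array 2 and 0.028 on array 1, so its place there rests on a very small gap. Ntrk2, for the receptor of Bdnf, lay within the range of the bacterial controls. The Bdnf deviation minus that of Ntrk3 came to 0.12, -0.37 and 0.25 for arrays 1, 2 and 3 (SD 0.33 over the arrays). With Ntrk2 averaged in at its floored values, ligand minus receptor was 0.15, -0.37 and 0.22 on arrays 1, 2 and 3. There is 1 group of 3 arrays, so these differences have no test, and without array 2 the ligand minus receptor difference was -0.04 on array 1 and 0.04 on array 3.

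**Figure D3:**
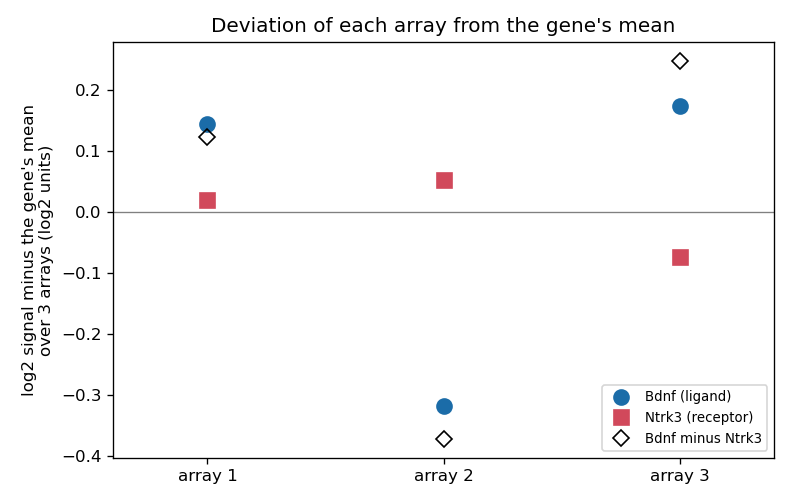
Deviation of each array from the gene's mean (log2 units) for Bdnf and Ntrk3, and their difference as open diamonds, on arrays 1, 2 and 3. The difference lies at -0.37 on array 2 and above 0 on both other arrays.

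Array 2 also differed from the other arrays in the RNA control ratios and in single bright marker genes of several cell types and tissues. Signal from the 3' control probe set of Gapdh was 3.99, 1.21 and 3.94 times that from its 5' one on arrays 1, 2 and 3, and for Actb 2.57, 1.86 and 3.50 times. Over all measured probe sets, 42.3% were lowest on array 2, as Bdnf was. The summed signal of the 6 excitatory neuron markers with a probe set was 8912, 7156 and 10265 on arrays 1, 2 and 3, and 3 of the 4 measured ones were lowest on array 2. Without Nrgn, the neurogranin gene, the other 5 summed to 3843, 3396 and 3952. That of 4 CA1 pyramidal neuron markers was 7741, 6658 and 7080, and without Dcn, the decorin gene, the other 3 summed to 4243, 4276 and 4442. Among these Wfs1, the wolframin gene, gave 2522 ± 66.0. For 8 astrocyte markers, all measured, the sum was 43188, 47866 and 38218, but the array 2 maximum came from Apoe, the apolipoprotein E gene, without which the sums were 22204, 21072 and 20254. The choroid plexus and ependyma list, with 6 genes, summed to 3879, 7580 and 2360, the CA3 and CA2 list, also with 6, to 6281, 11453 and 7655, and the thalamus list, with 5, to 3020.5, 5287 and 2723, each highest on array 2. Single genes carried much of this. Without Nnat, the neuronatin gene, the CA3 and CA2 sums were 5239, 6591 and 6770.5, highest on array 3. Without Ttr the choroid plexus sums were 2545, 3324 and 2266, and without the complexin gene Cplx1 the thalamus sums were 1604, 1829 and 1599. The meninges and fibroblast list, with 7, summed to 12809, 8675.5 and 7973.5, and without Ptgds, the prostaglandin D synthase gene, to 4001, 4041 and 3247. The other 6 marker lists were of dentate granule neurons, interneurons, oligodendrocytes, microglia, vessels and Schwann cells or cholinergic fibres. In these the highest sum of all genes was 1.02 to 1.21 times the lowest. Without Csf1r the microglia sums were 2646, 3449 and 2576, and without Calb1 the dentate sums were 578, 847 and 606, highest on array 2. Without Cldn5 the vessel sums were 936, 1033 and 962, and without Sox10 the Schwann or cholinergic sums were 194, 205 and 175. Of genes with a probe set, 3 of 5 dentate, 3 of 8 vessel and 1 of 3 Schwann or cholinergic ones were measured. The last was Sox10, so the sums without Sox10 hold only genes that were not measured. Not highest on array 2 were interneurons without Sst, at 26272, 26604 and 30121, and oligodendrocytes without Mbp, at 16816, 16289 and 16439. Over all 13 lists 1 marker passed the limma variance test, again Ttr. The part of RNA quality or tissue makeup in the lower Bdnf signal was not tested, and in bulk tissue fewer cells of a type and less RNA per cell cannot be told apart.

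The genes whose pattern over the 3 arrays was most like that of Bdnf were Oxct1, which encodes a mitochondrial enzyme of ketone body use, Pabpc1, a poly(A)-binding protein gene, and Trim21. Likeness was the root mean square difference of the deviations, which was 0.0044, 0.0053 and 0.0058 on the log2 scale for Oxct1, Pabpc1 and Trim21. For Ntrk3 the nearest were Timp1, an inhibitor of matrix metalloproteinases, at 0.0069, and the respiratory chain genes Uqcr10 at 0.0086 and Ndufv2 at 0.0086. With 3 arrays a looser likeness is common. Of 4875 other measured genes, 135 lay within 0.05 of Bdnf and 535 within 0.1. For Ntrk3 the counts were 187 within 0.05 and 692 within 0.1. The deviations of Ntrk3 were all smaller than 0.1, so a gene flat over the arrays also lies within 0.1 of it. The second probe sets of Trim21, Timp1 and Ndufv2 gave other patterns, with Ndufv2 at 440, 394 and 526 on arrays 1, 2 and 3 against 3400, 3500 and 3132 for the first.

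Around the members, 10 lists cover other ligands and receptors, processing enzymes, the signalling branches, regulators of Bdnf and its targets, and other trophic factors. They name 180 genes, of which 122 had a probe set and 80 were measured, each taken at its brightest probe set. Of the 80, 0 passed the limma variance test, against 1 of 4876 measured genes, and 7 had an unadjusted p under 0.05, against 223. The 7 were Pcsk6, Pdpk1, Akt1, Mef2a, Mef2c, Crebbp and Gria1. More than 2-fold between arrays were 11 of the 80 (13.8%), against 496 of all measured genes (10.2%). The median log2 range was 0.53 in the lists and 0.47 over all measured genes. On array 2, 37 of the 80 had their lowest value (46.2%), against 43.1% of all measured genes.

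Of the other ligands and receptors 1 of 7 genes had a probe set. This was Sorl1, a sorting receptor of the sortilin family, at 240, 276 and 193 on arrays 1, 2 and 3. Among 13 genes for processing and secretion of the precursors 10 had a probe set and 5 were measured. Furin, the protease that cleaves proneurotrophins in the Golgi, was steady at 755 ± 38.0, with a log2 range of 0.15. Carboxypeptidase E (Cpe), which sorts Bdnf into regulated granules, gave 18824, 16323 and 24882 on arrays 1, 2 and 3, and its second probe set had the same order. The proprotein convertase gene Pcsk6 had the widest range of the pathway lists, 2.90, at 353, 369 and 47.9, where array 3 was under the brightest bacterial control of 55.6 (limma, adjusted p = 0.716).

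Of 20 adaptor genes that couple Trk receptors to their effectors 14 had a probe set and 7 were measured. Grb2, the adaptor that brings Sos to active receptors, gave 1464, 903 and 1402 on arrays 1, 2 and 3, lowest on array 2 as Bdnf was. Of the 7 measured adaptor genes 3 were lowest on array 2, against 43.1% of all measured genes. Sos1, the exchange factor for Ras, passed the threshold on array 3 alone, at 106, 114 and 342. Gab1, a docking protein for PI3 kinase, had the smallest range of this list, 0.42, at 324 ± 47.8. The median log2 range of the list was 0.49, close to the range of Bdnf.

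In the Ras and MAP kinase branch 12 of 21 genes had a probe set and 8 were measured. Of these 0 were more than 2-fold apart between arrays, against 10.2% of all measured genes. The small GTPase gene Rit1 was nearly flat at 396 ± 8.40. Map2k5, the kinase upstream of Erk5, gave 474, 809 and 624 on arrays 1, 2 and 3. Dusp6, the phosphatase that acts on Erk and is itself a target of Erk signalling, gave 782.5, 1207 and 919, also highest on array 2, while its second probe set was under the threshold.

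The PI3 kinase branch had the widest spread of the 10 lists by its median log2 range, 0.82, with 14 of 20 genes on the array. Of its 12 measured genes 4 were more than 2-fold apart, against 10.2% of all measured genes. Pdpk1, the kinase that activates Akt, gave 1906, 1145 and 2391 on arrays 1, 2 and 3 (limma, adjusted p = 0.899), and its second probe set gave 808, 560.5 and 561. The regulatory subunit gene Pik3r1 gave 251, 285 and 98.9, under the threshold on array 3. Mtor, the growth kinase downstream of Akt, was flat at 1385 ± 3.95, and its second probe set had a log2 range of 0.14. On array 2, 8 of the 12 had their lowest value, against 43.1% of all measured genes.

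In the phospholipase C branch 11 of 16 genes had a probe set and 7 were measured. Of these 0 were more than 2-fold apart, against 10.2% of all measured genes. Plcg1, the phospholipase that docks on Trk receptors, gave 282, 381 and 191 on arrays 1, 2 and 3. The calcium release channel gene Itpr2 gave 1312, 690 and 1135, and its second measured probe set was also lowest on array 2. Camk2b, a subunit of calcium/calmodulin kinase II, had a log2 range of 0.14, close to that of Ntrk3. Its deposited signal was 8840 ± 279.

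Ngfr itself has no probe set, but 17 of 24 genes for its partners and effectors did, and 12 were measured. All 12 were above the threshold on every array, and the median log2 range was 0.38. Rtn4, which encodes the Nogo proteins that signal through a p75 complex, gave 5048, 3694 and 6364 on arrays 1, 2 and 3. Necdin (Ndn), a p75-binding protein, gave 6964.5, 4097 and 5487 on its brightest probe set, lowest on array 2. Its second probe set was highest there, at 2162, 3451 and 1592, so the probe sets of this gene disagree. Psen2, a subunit of the protease that cuts p75 within the membrane, had the smallest range, 0.03.

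Among 19 regulators of the Bdnf gene 13 had a probe set and 9 were measured, with a median log2 range of 0.70. Of the 9, 3 were more than 2-fold apart, against 10.2% of all measured genes. The activity-dependent factor Mef2a gave 2953, 2352 and 1118.5 on arrays 1, 2 and 3 (limma, adjusted p = 0.760). Its relative Mef2c gave 247, 302 and 11.5, and the second probe set was lowest on array 3 as well. Usf1, a factor that binds the Bdnf gene in cultured neurons, was steady at 502 ± 14.7. The order of Mef2a and Mef2c over the arrays was not that of Bdnf, which was high on array 3. Mef2d, also on this list and chosen after its values were seen, gave 6339, 4799 and 8601.5 on arrays 1, 2 and 3, lowest on array 2 as Bdnf was. Of the 9 measured regulators 4 were lowest on array 2, against 43.1% of all measured genes.

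Of 17 targets of Bdnf signalling 11 had a probe set, and the 9 measured genes were above the threshold on every array. Gria1, an AMPA receptor subunit whose synthesis Bdnf stimulates in cultured neurons, was lowest on array 3 on both probe sets, at 7192, 8130.1 and 3565 on the brighter (limma, adjusted p = 0.834). Nptx2, a pentraxin that gathers AMPA receptors, was flat at 314 ± 4.90, and Dusp6 is also on this list. Of 24 genes of other trophic factor families 20 had a probe set and 11 were measured. Gfra2, the receptor for neurturin, gave 163.5, 351 and 221 on arrays 1, 2 and 3, and Il6st, the shared receptor of the ciliary neurotrophic factor family, gave 216, 407 and 255.5. Both were highest on array 2, whereas Gfra3, the receptor for artemin, was flat at 182 ± 4.58. Gfra2 was under the threshold on array 1. The second probe sets of Gfra2 and Il6st were under the threshold, and that of Gfra2 was highest on array 3, at 10, 75.2 and 80.5.

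**Figure D4:**
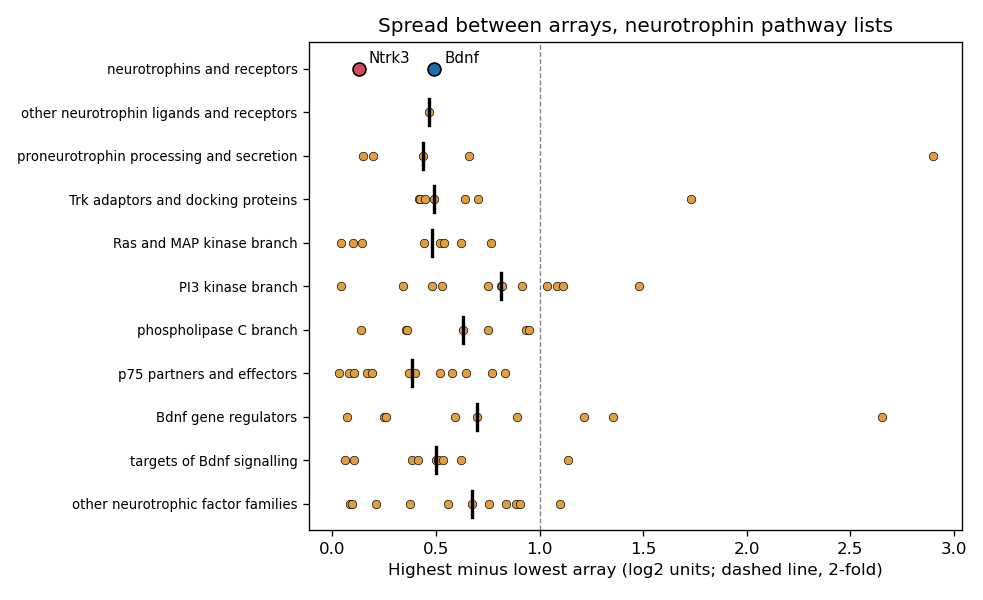
Highest minus lowest array (log2 units) of every measured gene in the 10 pathway lists, with Bdnf and Ntrk3 in the top row; each point is a gene at its brightest probe set, black bars are list medians and the dashed line marks 2-fold. Both members lie left of the line, and the points right of it are the 11 genes more than 2-fold apart between arrays.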

How the data were processed

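Signals of 12488 probe sets on 3 arrays were used. The deposited table gives a signal intensity per probe set on a linear scale; the sources used here name neither the program nor its settings or scaling. Trimmed means (2% left out at each end) were 500.3 on each array. The median signal was 171 to 177, and 6 to 18 probe sets per pair of arrays had identical values. Symbols came from the platform annotation, brought up to date with the GRCm38.p6 gene table by Entrez identifier: 10833 probe sets had 1 symbol, 396 several, 1193 none, and 66 were controls.

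Arrays were scaled to a common median over measured probe sets (mean above 175), floored at 47.5, the 25th percentile of deposited values, and log2-transformed. The variance test used limma 3.58.1 (R 4.3.3; fitFDistRobustly on log2 variances, winsorised at 0.05 and 0.1, F upper tail, Benjamini-Hochberg over all measured probe sets, threshold 0.05), tested on simulated data, where 3 of 30090 unchanged probe sets were called. No control group was used, so groups were not compared. P-values compare the spread of a probe set between these arrays with that of others of its signal. Such spread may be technical, and the number of arrays limits the precision.

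Members and lists were chosen with earlier results of these data known. Named are all members, per pathway list the 2 widest and 1 narrowest measured genes by log2 range, and 3 nearest patterns per measured member. From marker lists at most the first 2 genes with a probe set were named by rule. Others were chosen after their values were seen. An example is the marker of a list with the largest difference in deposited signal between arrays, a measure that favours bright genes. Alternatives were other scalings, floors, filters, prior, probe set rules and each array left out.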

Additional observations from a re-analysis of the deposited data

How the results depend on the processing

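The count of member probe sets past the limma variance test was 0 under 11 of 12 alternatives. Bdnf kept an adjusted p between 0.985 and 1 under 12 alternatives, and Ntrk3 between 0.995 and 1 under the 11 that tested it. With no filter on weak signals 1 member, Ntrk2, passed (limma, adjusted p = 0.0051) at a log2 range of 0.07, as did 5 pathway genes and 1375 of 12422 probe sets. In that fit 1851 probe sets had the floor value on every array and so a variance of 0, and the cause of the added calls was not tested. Over all measured probe sets the count was 0 after quantile normalization, cyclic loess, a threshold at the 75th percentile or a prior without the robust option, and ranged from 0 to 44 when an array was left out, 0 without array 2 and 44 without array 3.

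The member count more than 2-fold apart was 1, Ntrk2, with a floor at the 10th percentile and with no floor, a setting chosen after seeing the data. Ligand minus receptor on arrays 1, 2 and 3 was then 0.40, -0.88 and 0.48 at the lower floor and 0.37, -0.97 and 0.60 with none. Leaving out an array gave -0.04 to 0.26 for array 1, -0.29 to -0.26 for array 2 and 0.04 to 0.29 for array 3. The share of measured probe sets more than 2-fold apart was 19.7% with no filter, 6.59% at the higher threshold, and 3.46% to 7.81% with an array left out. No paired analysis was possible because all arrays belong to 1 group. The values of Ntrk2 are limited by its signal, which lay within the range of the bacterial controls.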
